A study of Mus musculus with 1778 samples.

Results

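The 58 genes described here are those of a cell cycle list, 24 that act in DNA replication and S phase and 34 that act in G2 and mitosis. They were taken by symbol from a count table of 24920 genes, and all 58 were present. Cells copy their genome in S phase and divide it in mitosis. The replication genes are driven at the entry into S phase by E2F transcription factors, which the retinoblastoma family of pocket proteins holds back until cyclin and CDK pairs release them, and the G2 and mitosis genes follow later under the B-Myb and FoxM1 programme. Proteins such as cyclin B and Aurora A are also destroyed at the end of each mitosis, and several of their transcripts are at their highest shortly before. In the early embryonic head, neuroepithelium and neural crest are known as fast-dividing tissues. The genes were measured in single cells labelled as cranial neural crest cells, sorted for Tomato fluorescence from C57BL/6 embryos that carried Wnt1::Cre and Rosa26TdTomato, at 4, 6, 8 and 10 somites. Wnt1::Cre labels cells with a history of Wnt1 transcription and their descendants, so the sort holds neural tube cells as well as crest, and the labels name no unlabelled or wild-type cells. The library method, Smart-Seq2, reads whole transcripts in wells and adds no molecular identifiers.

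The table held 1778 cells. A cell needed 50000 reads on genes and 1500 genes with a read, and 1728 cells met both limits: 12.7% of them were of 4 somites, 48.3% of 6, 13.1% of 8 and 25.8% of 10. The 45S ribosomal precursor Rn45s took 54.4% of their reads and was set aside. The reads that remained per kept cell ran between 10736 and 1007751, with a median of 387020, and levels are given as CPM, counts per 1000000 of those reads, from reads summed over the cells of a group. Neither embryos nor litters are named in the labels, so a stage counts here as a single pool, cells were not used as replicates, and no p-value is given. The 7-digit number in the cell titles was read as a plate, although the labels do not say what it means, and the 8 plates are lettered A to H in the order of their numbers. Plate B held cells of 6, 8 and 10 somites, D of 4 and 8, F of 4 and 6, A, E and H of 6, and C and G of 10. Intervals are 95% intervals for counting error alone, since several reads can come from 1 molecule. The crest label was borne out in part of the cells: Sox10, the SoxE factor of migrating crest, reached at least 50 CPM in 8.18%, 28.02%, 66.5% and 76.5% of the kept cells of 4, 6, 8 and 10 somites (called Sox10-high), and had 0 reads in 82.3%, 67.2%, 24.2% and 19.5% (called Sox10-negative).

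Nearly every cell carried transcripts of both lists. After each cell was thinned at random to 50000 reads, the median cell had reads from 23 of the 24 S phase genes and from 31 of the 34 G2M genes, and the lowest cells had 10 and 9. Among the 1722 cells deep enough to be thinned (0, 2, 0 and 4 kept cells of 4, 6, 8 and 10 somites were too shallow), 1721 had at least 12 of the S phase genes and 1716 had at least 17 of the G2M genes. The gene found in the smallest share of these cells was Ccne2, a cyclin of the G1 to S transition, with reads in 62.4% of them, followed by the spindle gene Psrc1 with 63.8%. A read for a mitotic gene does not place a cell in mitosis.

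Ordered by level, the S phase list was led by Rrm2 and the G2M list by Ccnb1. Rrm2 (chr12:24708241-24714146, plus strand, GENCODE vM21 on GRCm38), the small subunit of ribonucleotide reductase, which makes deoxynucleotides, had 1600 CPM at 4 somites, 1526 CPM at 6, 1459 CPM at 8 and 1478 CPM at 10. Mcm6, a subunit of the replicative helicase, had 1193, 1266, 1284 and 1156 CPM in the same order of stages. Per kilobase of annotated exon Rrm2 was also the most abundant gene of the S phase list, with 577.4 CPM per kb at 4 somites, against 255.8 CPM per kb for Mcm6. Ccnb1 (chr13:100778650-100786570, minus strand), cyclin B1, the partner of CDK1 at mitotic entry, had 1024 CPM at 4 somites, 879.8 CPM at 6, 780.98 CPM at 8 and 666.1 CPM at 10, a steady order from the earliest stage to the latest. Pcna, Ccnb1 and Ccnb2 have annotated pseudogene copies that could share reads with them, and the sources used here do not say how such reads were counted. At the other end Ccne2 had 33.3, 41.4, 27.9 and 29.4 CPM, and Psrc1 had 54.8, 45.7, 36.2 and 40.2 CPM.

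**Figure D1:**
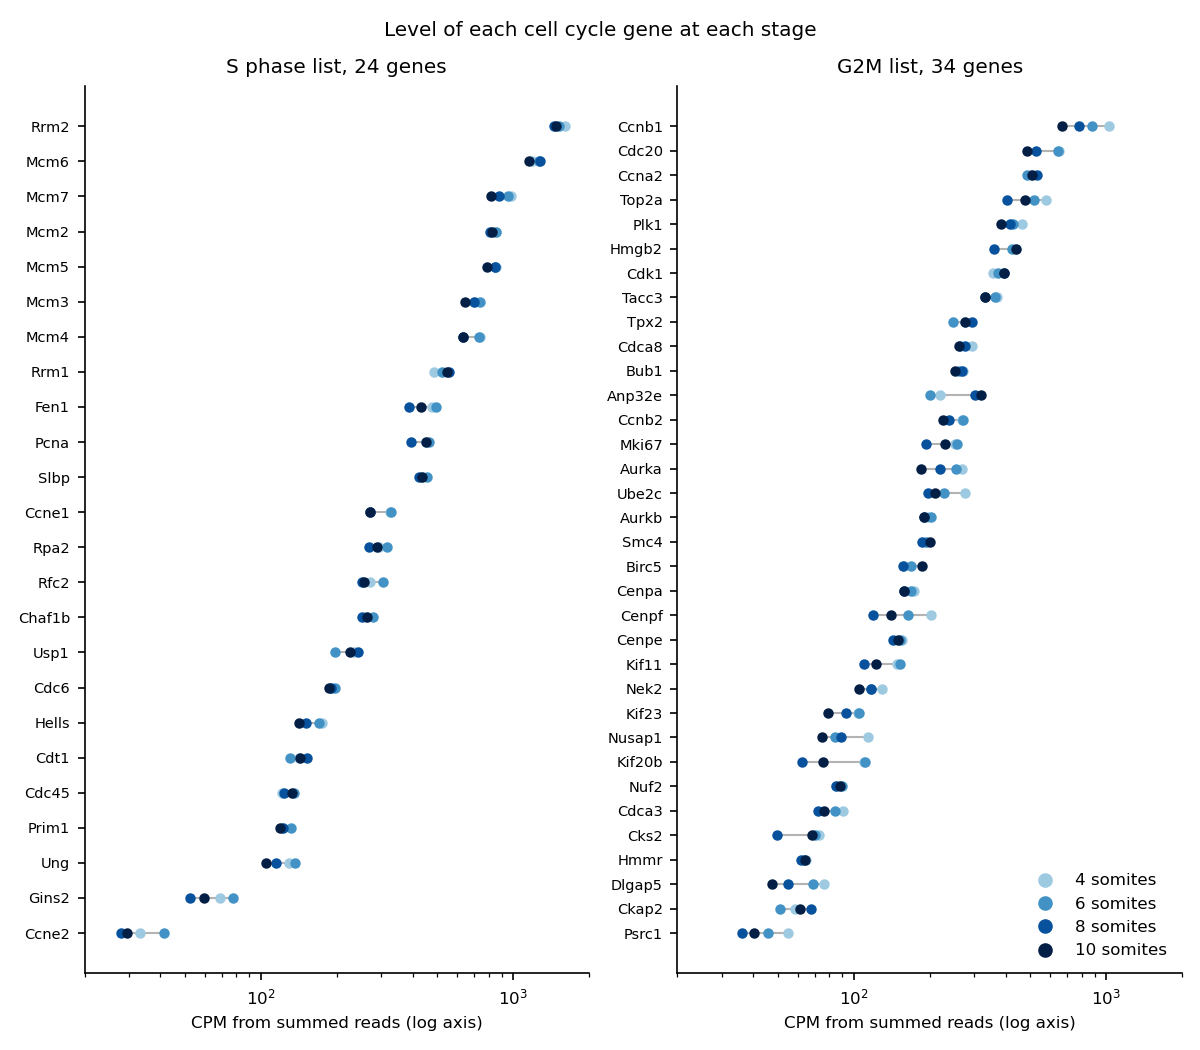
CPM of each member at 4, 6, 8 and 10 somites, from the sums of all kept cells per stage, on a log axis, with genes ordered by mean level within each list. The 4 points of most genes lie close together; Anp32e lies to the right at 8 and 10 somites, and Ccnb1 moves to the left with stage.

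Across the stages the S phase genes kept nearly level. The highest stage exceeded the lowest by a median of 1.17-fold over the 24 S phase genes and 1.25-fold over the 34 G2M genes, and by 1.38-fold over the 10391 genes with at least 5 CPM. Over the 6852 genes with a mean of at least 20 CPM, a range that is nearer to that of the members, it was 1.29-fold. The 6 MCM helicase subunits of the list ran between 1.06-fold for Mcm2 and 1.19-fold for Mcm7. Cdc6, which loads that helicase at origins, had 189.04, 196.1, 189.2 and 186.7 CPM at 4, 6, 8 and 10 somites. Slbp, which binds the stem loop of histone transcripts, had 434.9, 455.1, 421.8 and 434.8 CPM. Ccne1, cyclin E1, had 326.2, 328.04, 270.2 and 271.3 CPM, so both later stages lay below both earlier ones. Fen1, the flap nuclease of lagging strand synthesis, and Ung, which removes uracil from DNA, differed 1.28-fold and 1.30-fold between their highest and lowest stages.

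In 10 against 4 somites, the median log2 ratio was −0.07 for the S phase list and −0.16 for the G2M list, against 0.01 for all 10205 genes tested. None of the 58 members differed at least 2-fold, a size that 12.8% of all genes tested reached. The genes tested reach down to 5 CPM, below the level of any member, and no share at matched levels was computed. The same holds for the other 2-fold shares given beside the members. At a smaller size, a log2 ratio of at least 0.5 in either direction, 0 of 24 S phase genes and 7 of 34 G2M genes passed (6 lower and 1 higher at 10 somites), against 29.5% of all genes tested. The largest ratio within the S phase list was 0.16, for Rrm1, the large subunit of ribonucleotide reductase, and the lowest was −0.31, for the chromatin remodeller Hells. The direction of the S phase median was not stable: it was 0.18 when the ratio was built within plates, from 6 against 4 somites on plate F and 10 against 6 somites on plate B, and 0.08 with Rn45s kept in the total.

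The 6 G2M genes with a log2 ratio of −0.5 or lower were Dlgap5, Ccnb1, Nusap1, Aurka, Kif20b and Cenpf. Dlgap5, a spindle assembly protein, had 47.5 CPM at 10 somites and 75.9 CPM at 4 somites, a log2 ratio of −0.68. Ccnb1 followed with −0.62, and its 95% counting intervals were 662.3 to 669.96 CPM at 10 somites and 1018 to 1030 CPM at 4 somites. Nusap1, a spindle microtubule protein, had −0.61. The mitotic kinase Aurka and the kinesin Kif20b each had −0.54, and Cenpf, a kinetochore protein, had −0.53. By plate, Ccnb1 had 827.9 CPM and 645.6 CPM on the plates of 10 somites with at least 20 cells, between 794.5 CPM and 998.8 CPM on the 5 plates of 6 somites, and 1074 CPM and 933.8 CPM on those of 4 somites. The higher plate of 10 somites, B, and the lower plate of 4 somites both lay within the range of the 6 somite plates. Within plate B Ccnb1 had 827.9 CPM at 10 somites and 846.9 CPM at 6 somites, a log2 ratio of −0.03. Cyclin B2 (Ccnb2, −0.25), Cdc20, the activator of the anaphase-promoting complex (−0.42), and Ube2c, its ubiquitin-conjugating enzyme (−0.39), were lower at 10 than at 4 somites by less. Top2a, the topoisomerase that untangles sister chromatids, and Plk1, the polo kinase, each had −0.28.

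Other G2M genes did not follow them. Anp32e, a chaperone that removes the histone variant H2A.Z, had 220.2, 199.7, 302.7 and 320.8 CPM at 4, 6, 8 and 10 somites, a log2 ratio of 0.54 for 10 against 4, the highest of the 58. By plate it had 232.04 CPM and 333.5 CPM at 10 somites, and between 176.4 CPM and 300.2 CPM at 6 somites, so the plates of these stages overlapped. On plate B alone its order was the opposite one, with 232.04 CPM at 10 somites and 300.2 CPM at 6 somites, a log2 ratio of −0.37. Cdk1, the kinase that cyclins A and B activate, had 356.2, 373.6, 395.3 and 393.3 CPM in the order of stages, Ccna2, cyclin A2, had 503.7, 487.9, 534.4 and 508.4 CPM, and Hmgb2, a chromatin protein, had 438.9, 423.96, 360.6 and 438.5 CPM. Birc5 (survivin) of the chromosomal passenger complex had a log2 ratio of 0.24, while Aurkb, the kinase of the same complex, had −0.05, and the proliferation marker Mki67 had −0.13. Of the 34 G2M genes, 20 had their highest level at 4 somites and 3 at 10 somites. Of the 24 S phase genes, 14 had it at 6 somites and 0 at 10 somites. The highest stage was not counted over all genes, so these counts are not read as a trait of the lists.

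Member ratios were also small between stages on 1 plate. In 6 against 4 somites on plate F the medians were 0.05 for the S phase list and −0.02 for the G2M list, with 0 of 58 members at 2-fold against 4.2% of all genes. In 8 against 6 somites on plate B they were −0.04 and −0.12, with 0 of 58 members at 2-fold against 6.51% of all genes. In 10 against 6 somites on the same plate they were 0.08 and −0.20, with 0 of 58 against 13.3% of all genes. These last comparisons share their 6 somite cells. On that plate the largest member ratios for 10 against 6 somites were 0.67 for Hells and −0.60 for Aurka.

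**Figure D2:**
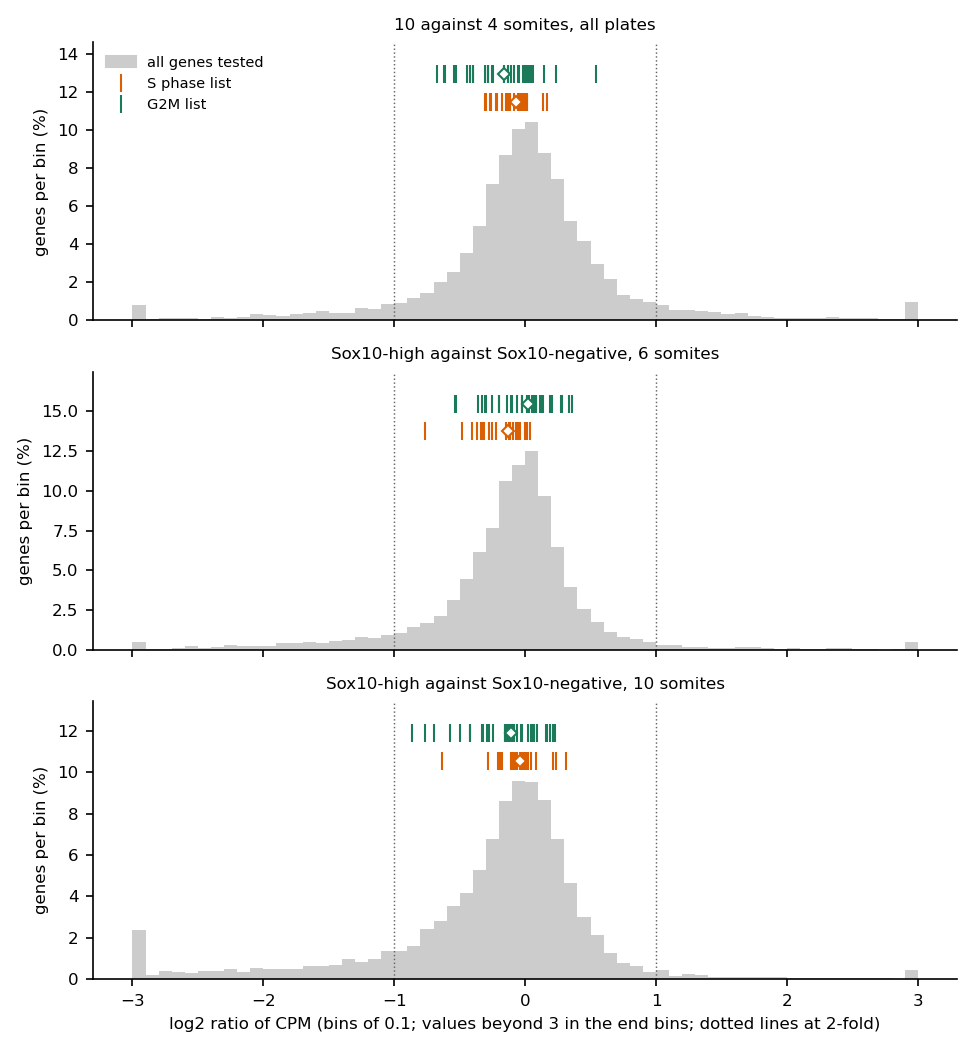
Log2 ratios of CPM for all genes tested (grey, percent of genes per bin of 0.1) and for each member (ticks; diamonds mark list medians), for 10 against 4 somites and for Sox10-high against Sox10-negative cells at 6 and 10 somites. No member lies outside the dotted lines at 2-fold, while all genes tested have tails beyond them.

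The rest of the machinery around the members was read from 5 further lists. Of 36 other replication genes, 0 differed 2-fold between 10 and 4 somites, with a median of −0.03. Tk1, thymidine kinase, had the largest log2 ratio, 0.69, with 94.4 CPM at 10 somites and 58.6 CPM at 4 somites, and Dut, the dUTPase, had −0.49. Of 40 other mitosis genes, with a median of −0.09, 1 was at least 2-fold lower: G2e3, a ubiquitin ligase of G2, had 40.8 CPM at 10 somites and 87.4 CPM at 4 somites. The gene that stood out was a G1 cyclin. Ccnd2, cyclin D2, had 548.7 CPM at 10 somites and 179.96 CPM at 4 somites, a log2 ratio of 1.61, and within plates it had 0.94 for 6 against 4 somites and 0.89 for 10 against 6 somites. By plate it had 592.7 and 528.9 CPM at 10 somites, 298.5 to 373.1 CPM on the 5 plates of 6 somites, and 155.6 and 224.8 CPM at 4 somites, with no overlap between these stages. Ccnd1 (−0.10) and Ccnd3 (0.38) did not differ by as much. Its partner Cdk4 had 1342 CPM at 10 somites and 1532 CPM at 4 somites, and Cdk6 had 15.6 CPM at 10 somites and 31.1 CPM at 4 somites. Of 7 CDK inhibitors, 2 reached 5 CPM in either of these stages: Cdkn1c (p57) had 50.9 CPM at 10 somites and 56.6 CPM at 4 somites, and Cdkn2d (p19) had 8.75 CPM at 10 somites and 10.9 CPM at 4 somites. Cdkn1a (p21) had 3.38 CPM at 10 somites and 3.65 CPM at 4 somites, and Cdkn2a was listed at 0 in both. Of the pocket proteins, Rb1 had 7.04 CPM at 10 somites and 9.24 CPM at 4 somites, and its relative Rbl1 (p107) 25.6 CPM at 10 somites and 30.4 CPM at 4 somites.

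The neuroepithelial and crest markers moved with stage beside these values. The summed CPM of 8 crest genes was 222.3, 431.5, 851.4 and 976.01 at 4, 6, 8 and 10 somites, that of 7 neuroepithelium genes was 276.8, 187.9, 122.2 and 78.8, and that of 7 surface ectoderm genes was 514.3, 620.3, 344.9 and 242.04. Their part in the stage ratios of the members was not tested, and in summed reads fewer cells of a type and less RNA per cell cannot be told apart.

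The 2 lists were then compared between Sox10-high and Sox10-negative cells of the same stage. At 10 somites, Sox10-high against Sox10-negative cells gave a median log2 ratio of −0.04 for the S phase list and −0.11 for the G2M list, against −0.10 for all genes. None of the 58 members differed 2-fold, against 16.1% of all genes tested, and 5 members had a log2 ratio of −0.5 or lower and 0 of 0.5 or higher, against 33% of all genes in either direction. The 5 were Nusap1 (−0.87), the midbody kinesin Kif23 (−0.76), Mki67 (−0.70), the replication factor Gins2 (−0.64) and Psrc1 (−0.57). Nusap1 had 64.2 CPM in Sox10-high cells and 117.1 CPM in Sox10-negative cells, and Mki67 had 207.4 CPM in Sox10-high cells and 336.9 CPM in Sox10-negative cells. The highest ratios were 0.31 for Cdc6, with 195.04 CPM in Sox10-high cells and 157.2 CPM in Sox10-negative cells, and 0.23 for both Ccne1 and Cdk1. With edgeR TMM factors the median gene shifted by 0.16, and the medians of both lists turned positive, 0.13 for the S phase list and 0.06 for the G2M list. Relative to the median gene they were 0.06 for the S phase list and −0.01 for the G2M list. A scaling moves all genes alike, so it cannot change these relative values.

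Outside the members, the retinoblastoma gene Rb1 had 5.27 CPM in Sox10-high cells and 14.5 CPM in Sox10-negative cells at 10 somites, a log2 ratio of −1.46, and it had −2.48 at 8 somites and −1.04 at 6 somites. By plate at 6 somites it had −1.27 on plate E, −0.24 on plate F and −0.10 on plate H, so its size rested on plates. Plate B is not given here, and in Sox10-high cells of 10 somites Rb1 was near the minimum of 5 CPM. The E2F factor E2f2 (−1.31), the CDK inhibitor Cdkn1c (−1.02) and the phosphatase Cdc25b (−1.36), which activates CDK1, were also at least 2-fold lower in Sox10-high cells at 10 somites. Its relative Cdc25a was higher, with 171.2 CPM in Sox10-high cells and 104.5 CPM in Sox10-negative cells, a log2 ratio of 0.71. Endothelium markers moved with this comparison: the summed CPM of 7 such genes was 38.7 in Sox10-high cells and 351.3 in Sox10-negative cells at 10 somites, and neuroepithelium genes had 41.5 CPM in Sox10-high cells and 222.2 CPM in Sox10-negative cells. Their part in these ratios was not tested. The median reads per scored cell were 363827 in Sox10-high and 305774 in Sox10-negative cells.

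At the other stages the member ratios were again small. At 4 somites there were 18 Sox10-high cells, and Gins2 and Psrc1 (−1.13) were 2-fold lower in Sox10-high cells, 2 of 58 members against 18.6% of all genes. At 8 somites 0 of 58 members differed 2-fold, against 14.9% of all genes. At 6 somites 0 of 58 did, against 10.1% of all genes. Gins2 had log2 ratios of −0.76, −0.67 and −0.64 at 6, 8 and 10 somites, and Psrc1 had −0.54, −0.62 and −0.57, so both were lower in Sox10-high cells at each stage. Kif23 had 0.04, −0.36, −0.73 and −0.76 at 4, 6, 8 and 10 somites.

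The 6 somite stage allowed the comparison within 4 plates that held at least 10 cells of each state. The S phase list median was −0.22, −0.15, −0.19 and −0.14 on plates B, E, F and H, below the median of all genes on each, which ran between −0.07 and −0.02. Of the 24 S phase genes, 14 were lower in Sox10-high cells on each of the 4 plates, against 20.1% of the 9450 genes tested, and 0 were higher on each, against 12.7%. Ratios close to 0 count here too, such as −0.03 for Rrm1 on plate E. The 14 included Rrm2 (−0.34, −0.16, −0.17 and −0.36), Ung (−0.35, −0.37, −0.42 and −0.27), Hells (−0.62, −0.24, −0.61 and −0.23), Mcm4 and the licensing factor Cdt1. Summed over the stage, Rrm2 had 1302 CPM in Sox10-high cells and 1617 CPM in Sox10-negative cells. Cdc6 was among them as well, with −0.23 over the stage, where at 10 somites it had 0.31; the difference between these stages was not tested.

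Of the 34 G2M genes, 8 were higher in Sox10-high cells on each 6 somite plate and 4 were lower. The 8 were Aurka, Aurkb, Bub1, Ccnb1, Cdk1, Cks2, Hmgb2 and Plk1, kinases and cyclin partners for the most part. Plk1 had 505.996 CPM in Sox10-high cells and 394.8 CPM in Sox10-negative cells, with log2 ratios of 0.46, 0.26, 0.20 and 0.18 by plate. Bub1, a kinase of the spindle checkpoint, had 0.62, 0.29, 0.06 and 0.50. The 4 that were lower were Cenpf, Kif23, Mki67 and Psrc1. Mki67 had 217.9 CPM in Sox10-high cells and 274.1 CPM in Sox10-negative cells. The G2M list thus held genes of both directions in the same cells. Over all genes tested, 12.7% were higher on each plate and 20.1% lower. Without cells bearing marker sets of other types, 7 G2M genes were higher and 7 lower, and 1 S phase gene was higher and 13 lower, against 12.6% of all genes higher and 19.95% lower. With the median gene of each plate as the zero, 12 G2M genes were higher and 2 lower, and 1 S phase gene was higher and 11 lower, against 16.1% of all genes higher and 17.1% lower. The balance of directions among the G2M genes thus changed with the cells kept and with the zero.

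To describe single cells, each cell was given 2 scores at 50000 reads, the mean of log2(CPM + 1) over the 24 S phase genes and over the 34 G2M genes. Each score was set against its median over all 1722 cells, 7.86 for S and 6.73 for G2M, and divided by its SD, 0.65 and 0.93. A cell above either median was called by its higher scaled score, G2M-high or S-high, and a cell below both medians was called low in both. These are ranges of a score and not phases measured by DNA content: 8.59% of the 1722 cells lay within 0.1 SD of a limit, and 15.3% lay above both medians. The limits are medians, so the overall shares, 43.3% G2M-high, 41.4% S-high and 15.3% low in both, are in part set by the method. The scores ran against each other across cells, with Pearson's r of −0.38, −0.30, −0.42 and −0.37 at 4, 6, 8 and 10 somites, over the scored cells of each stage, which share depth and plates. The mean S score was 7.73, 7.73, 7.76 and 7.76 in the order of stages, with SDs of 0.63, 0.69, 0.56 and 0.60, and the mean G2M score was 6.75, 6.54, 6.69 and 6.67, with SDs of 0.93, 1.01, 0.74 and 0.84.

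**Figure D3:**
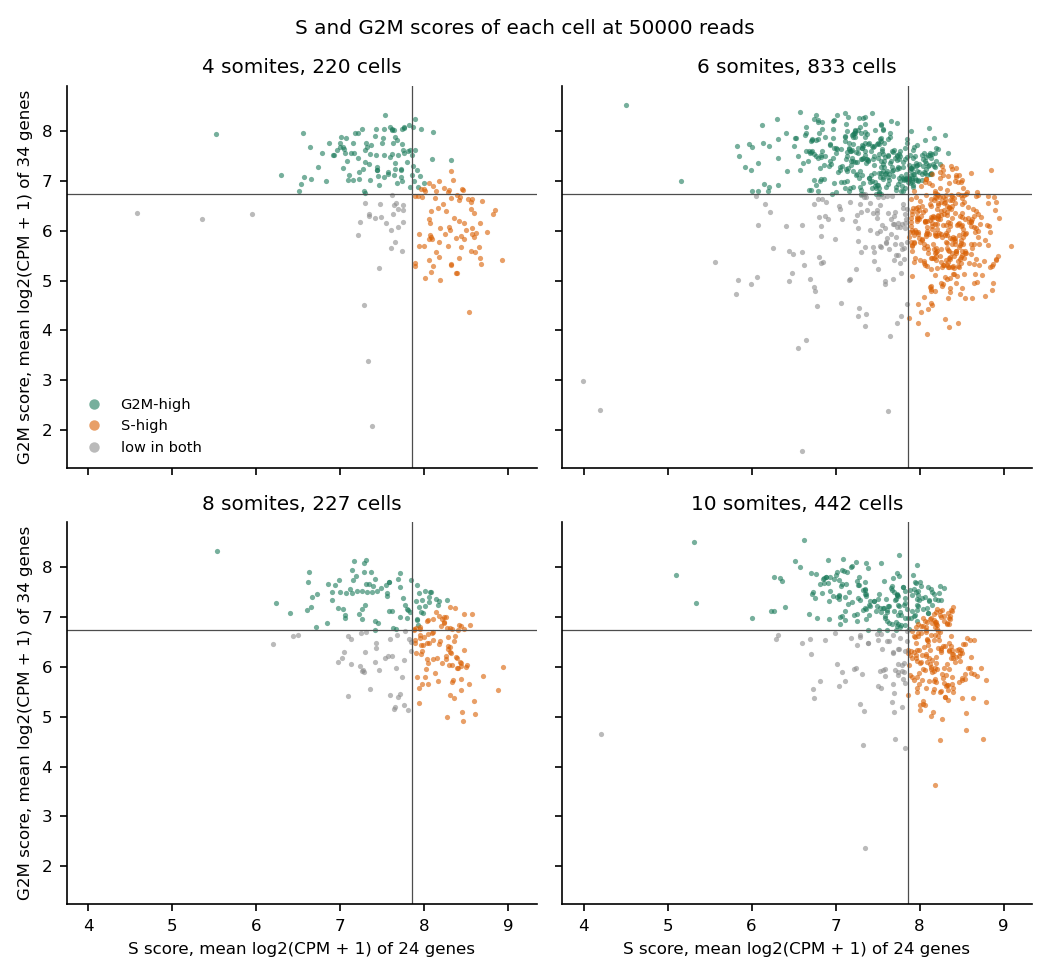
S score (x axis) and G2M score (y axis) of each cell at 50000 reads, by stage, coloured by class; lines mark the medians over all 1722 cells. At each stage the cells run in a band from high S and low G2M scores to the reverse, with the low-in-both cells at the lower left.

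The share of G2M-high cells was 48.6% at 4 somites (41.9 to 55.4%), 43.1% at 6 (39.7 to 46.5%), 39.2% at 8 (32.8 to 45.9%) and 42.99% at 10 (38.3 to 47.7%). That of S-high cells was 38.2%, 41.5%, 42.7% and 42.1%, and that of cells low in both was 13.2%, 15.4%, 18.1% and 14.9%. Neighbouring stages had overlapping intervals for each class. Without thinning, the G2M-high shares were 49.5%, 42.4%, 43.6% and 43.3%. Plates of 1 stage differed by as much as stages did: among the plates of 6 somites the share ran between 37.6% on plate E and 71.4% of 21 cells on plate A, with 58.3% of 72 cells on plate B. On plate B it was 22 of 55 cells at 10 somites and 58.3% at 6 somites, and on plate F it was 39.4% at 6 somites and 47.7% at 4 somites. The sum of these differences within plates was −26.5 percentage points for 10 minus 4 somites, against −5.65 points over all plates and −12.8 points without plate C.

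By Sox10 state the G2M-high share was higher in Sox10-high cells at each stage at 50000 reads, and the counting intervals of the states overlapped at 4, 8 and 10 somites. At 10 somites the direction was not stable: the difference of 5.43 percentage points was −0.65 without cells bearing marker sets of other types and −0.63 with thinning to 100000 reads. It was 61.1% of 18 Sox10-high cells and 45.9% of Sox10-negative cells at 4 somites, 54.1% of Sox10-high and 38.9% of Sox10-negative cells at 6 somites, 41.7% of Sox10-high and 32.7% of Sox10-negative cells at 8 somites, and 43.99% of Sox10-high and 38.6% of Sox10-negative cells at 10 somites. At 6 somites the intervals were 47.4 to 60.6% for Sox10-high cells and 34.9 to 43.1% for Sox10-negative cells. The share was also higher in Sox10-high cells on each of the 4 plates of that stage with at least 10 cells of each state. Sox10-high cells had 66.7% on plate B, 39.6% on E, 66.7% (8 of 12 cells) on F and 56.1% on H, and Sox10-negative cells had 42.9%, 37.2%, 36.8% and 46.2% on those plates, and the intervals of the 2 states overlapped on each plate. Without thinning the 6 somite shares were 53.4% of Sox10-high and 37.97% of Sox10-negative cells. Markers of surface ectoderm moved with Sox10 state: their summed CPM was 361.6 in Sox10-high cells and 736.9 in Sox10-negative cells at 6 somites, 6 of the 6 genes tested were lower in Sox10-high cells on each plate, and 53.1% of the cells with most of these markers were G2M-high. Without cells bearing marker sets of endothelium, erythroid, cardiac muscle, surface ectoderm or head mesoderm, 51.6% of Sox10-high cells and 39.3% of Sox10-negative cells were G2M-high. The median number of genes per cell at 50000 reads was 5811 in Sox10-high and 5281 in Sox10-negative cells at 6 somites, and its part in the difference was not tested.

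**Figure D4:**
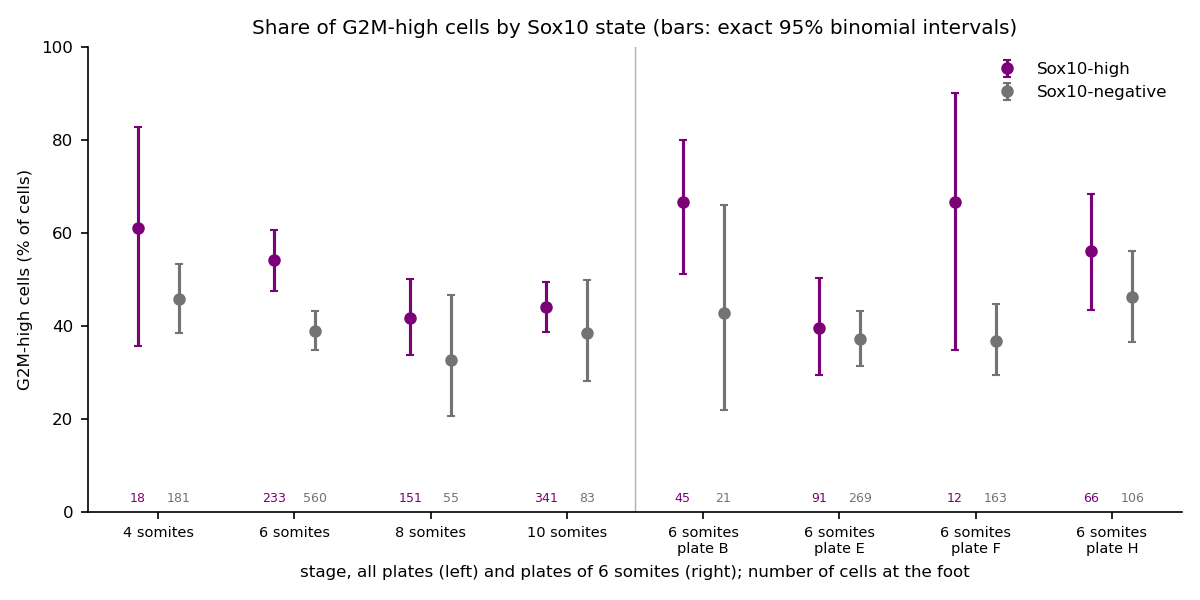
Share of G2M-high cells among Sox10-high and Sox10-negative cells, by stage over all plates and for 4 plates of 6 somites, with exact 95% binomial intervals and the number of cells at the foot. Sox10-high cells lie above Sox10-negative cells in each pair, and the intervals are apart at 6 somites over all plates. They overlap on each of the 4 plates, and the shares over all plates mix plates that differ in Sox10 state.

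Over whole stages the share of cells low in both was lower among Sox10-high cells. At 8 somites they made up 12.6% of Sox10-high cells and 34.5% of Sox10-negative cells, at 10 somites 13.5% of Sox10-high cells and 19.3% of Sox10-negative cells, and at 6 somites 11.2% of Sox10-high cells and 17.3% of Sox10-negative cells. At 8 somites the counting intervals did not overlap, with 7.75 to 18.95% for Sox10-high cells and 22.2 to 48.6% for Sox10-negative cells, and without thinning the shares there were 10.6% of Sox10-high cells and 29.1% of Sox10-negative cells. The 6 somite plates did not share a direction. Sox10-high cells had 4.44% on plate B, 14.3% on E, 8.33% (1 of 12 cells) on F and 13.6% on H, and Sox10-negative cells had 4.76%, 15.99%, 26.4% and 9.43% on those plates. Over all stages endothelium markers moved with this class: 28.7% of 87 cells with most endothelium markers were low in both, against 15.3% of the 1302 cells with no such marker set of another type. By stage it was 3 of 5 endothelium marker cells at 4 somites and 35.9% of 39 at 6. At 8 somites it was 20% of 15 and at 10 somites 17.9% of 28. All scored cells had 13.2%, 15.4%, 18.1% and 14.9% in the order of stages. In low-in-both against S-high cells, all 7 endothelium genes were at least 2-fold higher, with a median log2 ratio of 2.33, where 2.73% of all genes differed 2-fold, and their summed CPM was 347.6 in low-in-both cells and 95.4 in S-high cells. Low-in-both cells also had fewer genes detected at 50000 reads than S-high cells in 7 of 7 sets of cells of 1 plate and stage, by a median of 330. Their part in the class was not tested.

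The classes were then read in genes that did not enter the scores. In G2M-high against S-high cells, 0.82% of all genes tested differed 2-fold. The members themselves had medians of 0.81 for the G2M list, with 14 of 34 genes 2-fold higher, and −0.56 for the S phase list, with 3 of 24 genes 2-fold lower, which the classes were made from and which show nothing further. Of 40 mitosis genes outside the list, 9 were 2-fold higher in G2M-high cells and 0 lower, with a median of 0.77. Prc1, the bundler of the central spindle, had 186.9 CPM in G2M-high cells and 51.4 CPM in S-high cells. Ckap2l had 145.6 CPM in G2M-high cells and 48.4 CPM in S-high cells, and Kpna2, a nuclear import receptor, had 630.6 CPM in G2M-high cells and 225.1 CPM in S-high cells. Of 36 other replication genes, 0 were 2-fold lower, with a median of −0.21, and Clspn, the checkpoint mediator claspin, was lowest with −0.72. The repressor E2f8 had 10.9 CPM in G2M-high cells and 32.1 CPM in S-high cells, and Mybl2, which encodes B-Myb, was counted with the mitosis genes but was lower in G2M-high cells, with 80.1 CPM there and 138.1 CPM in S-high cells. The 6 G1 cyclins and CDKs tested had a median of −0.03, 3 CDK inhibitors 0.10 and 10 pocket proteins and E2F factors −0.32. Of the other marker lists, over all stages, neural crest had a median of 0.09, neuroepithelium −0.03, surface ectoderm 0.21, endothelium −0.21, head mesoderm −0.27 and dissociation stress −0.22. Single stages differed from these values. At 10 somites all 7 surface ectoderm genes were at least 2-fold higher in G2M-high cells, with a median of 1.71. The share of 0.82% of all genes is over all stages, and the share at 10 somites alone is not given. These 7 genes summed to 23.5 CPM in the median cell of 10 somites, against 242.04 CPM over the stage. The upper quartile of cells was at 74.7 CPM, so a minority of cells carried the stage level. The neural crest median was 0.53 at 6 somites and 0.44 at 8 somites. The 3 erythroid genes were 2-fold lower in G2M-high cells, with a median of −1.64, as was the 1 cardiac muscle gene tested, at −2.89. Few cells carried these markers: the erythroid set was found in 13 G2M-high and 8 S-high cells, and the cardiac muscle set in 0 G2M-high cells and 1 S-high cell. The part of the marker lists in the comparison was not tested.

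RNA per cell differed between the classes by an amount that varied with the plate. The ratio of reads to ERCC spike-in reads, a measure of RNA per cell, was higher in G2M-high than in S-high cells in 6 of 7 sets of cells of 1 plate and stage, by a median log2 difference of 0.21 and a range of −0.07 to 1.26, the highest at 6 somites on plate H. In low-in-both against S-high cells it was lower in 5 of the 7, by a median log2 difference of −0.30 and a range of −0.51 to 0.61. The number of genes detected at 50000 reads was higher in G2M-high cells in 6 of the 7, by a median of 240.

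Within each list some genes followed the rest and others did not. For each member, r across cells was taken with the mean of the other genes of its own list and with the score of the other list, within 9 sets of cells of 1 plate and stage that held at least 55 cells, and averaged. Cells of a set share their plate and depth. Ccnb1 had the highest r with the G2M score, 0.66 (0.54 to 0.76 over the 9 sets), followed by Ube2c (0.63), Plk1 (0.61), Aurka (0.58) and Nusap1 (0.56), all of which act from mitotic entry to anaphase. The median G2M gene had 0.37, and 7142 genes outside the lists had a median of 0.07, with 0.24 at their 99th percentile. In the S phase list Rrm2 had 0.59, Ung 0.50 and Pcna, the sliding clamp of DNA polymerases, 0.43, and the median gene had 0.33, against 0.03 for genes outside the lists.

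Several members stood apart. Anp32e had r of −0.02 with the G2M score and 0.14 with the S score, and 238.6 CPM in G2M-high cells and 261.5 CPM in S-high cells. Ccnb2 had 0.16 with the G2M score, far from the 0.66 of Ccnb1, and a log2 ratio of 0.18 between G2M-high and S-high cells where Ccnb1 had 1.37. Anp32e, Ccnb1 and Ccnb2 all entered the score that made the classes, so their class values add nothing to r. Ccna2 (0.28), Birc5 (0.23), Hmgb2 (0.21) and the kinetochore gene Nuf2 (0.18) were also low. In the S phase list Cdt1 (0.08), Rrm1 (0.10) and the clamp loader subunit Rfc2 (0.11) hardly followed the other genes, and each of Cdt1 and Rfc2 had about the same r with the G2M score (0.08 and 0.09). Between single genes r was weak: over the 9 sets the mean pairwise r was 0.10 to 0.17 within the S phase list, 0.14 to 0.20 within the G2M list and −0.11 to −0.03 between them.

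**Figure D5:**
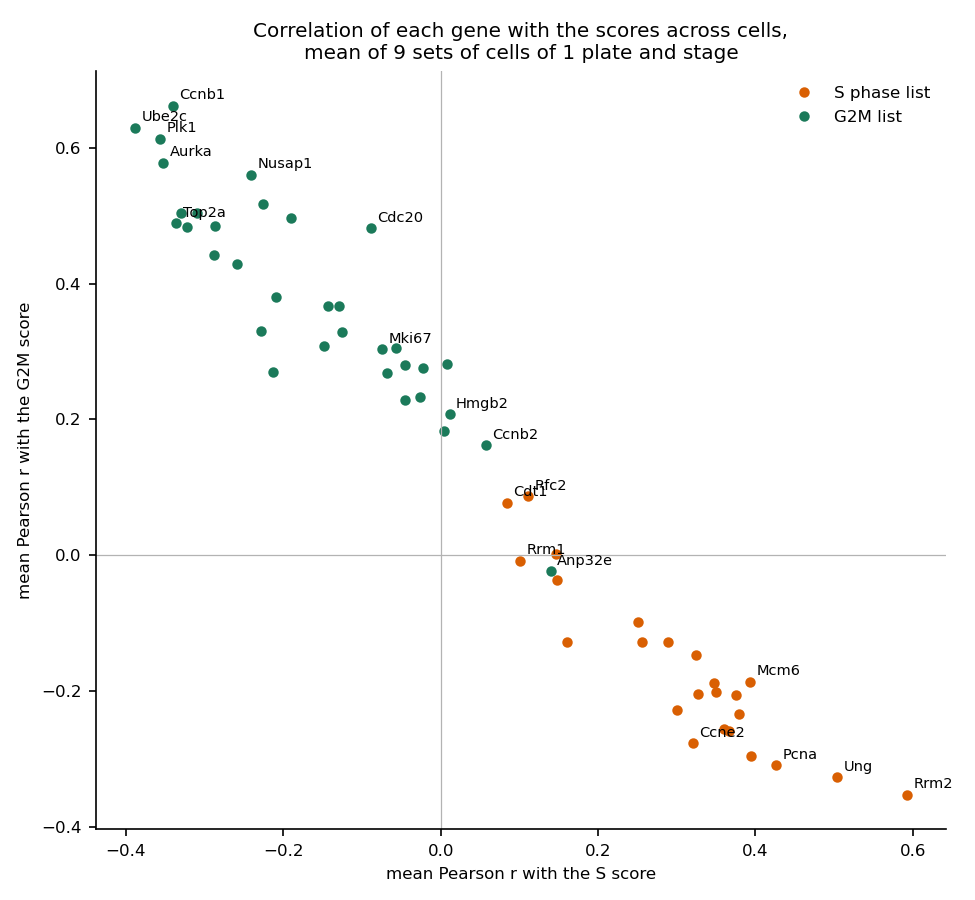
Mean Pearson r of each member with the S score (x axis) and the G2M score (y axis) across cells, over 9 sets of cells of 1 plate and stage, the gene itself left out of its own list's score. The lists run from Ccnb1 and Ube2c at the upper left to Rrm2 at the lower right, with Anp32e among the S phase genes and Ccnb2, Cdt1 and Rfc2 near the middle.

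The members also differed in their spread between cells. Ccnb1 in single cells of 10 somites had a 10th percentile of 197.2 CPM, a median of 532.6 CPM and a 90th percentile of 1321 CPM, and at 4 somites 261.6, 878.1 and 1969 CPM. Anp32e had 159.8, 310.8 and 468.5 CPM at 10 somites, and 86.2, 198.4 and 352.8 CPM at 4 somites. Cdc6 had 17.3, 152.4 and 390.7 CPM at 10 somites and 1.12, 122.8 and 419.7 CPM at 4 somites, while Mcm7 had 470.8, 812.2 and 1197 CPM at 10 somites and 586.3, 945.8 and 1454 CPM at 4 somites. The lowest cells were thus near 0 for Cdc6 and not for Mcm7, a subunit of the helicase that Cdc6 loads.

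The genes outside the lists with the highest mean r with the G2M score included Arl6ip1 (0.52), Ccnf (0.52), Prc1 (0.50), Fzr1 (0.49), Ckap2l (0.48), Fam83d (0.47), Bub3 (0.47), Kpna2 (0.47) and Kif18a (0.44), over the same 9 sets. Those for the S score were Msh6 (0.39), Mcm10 (0.35), Srsf2 (0.35), Uhrf1 (0.35), Dtl (0.33), Cdca7 (0.31), E2f8 (0.30), Atad2 (0.30), Hat1 (0.30) and Wdhd1 (0.29). Msh6 encodes a mismatch repair protein, Mcm10 a replication initiation factor and Uhrf1 a partner of maintenance DNA methylation. Srsf2 is a splicing factor.

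The promoters of the members were read for motifs known from these programmes, in windows from 250 bases before to 50 after the RefSeq start on GRCm38.p6, on both strands. RefSeq sequences matched 48 of the 58 genes by symbol, 19 of the S phase list and 29 of the G2M list, and 27025 genes in all. The letters TTTNNCGC, an E2F site, were present in 7 of the 19 S phase promoters (36.8%) and 2 of the 29 G2M promoters (6.90%), against 5.27% of all promoters. The cell cycle homology region TTTGAA, which the MuvB complex with B-Myb binds, was present in 65.5% of G2M promoters and 15.8% of S phase promoters, against 18.1% of all, and its variant TTCGAA in 10.3% of G2M promoters and 5.26% of S phase promoters, against 1.57% of all. The NF-Y box CCAAT was present in 82.8% of G2M promoters and 63.2% of S phase promoters, against 37.9% of all. Either form of the homology region together with CCAAT was present in 20 of 29 G2M promoters (68.97%) and 15.8% of S phase promoters, against 7.70% of all. A match is a description of letters and not of binding. The S phase examples shown are the first of the members described by role that hold an E2F match, Mcm5 at chr8:75109259-75109558 on the plus strand and Cdc6 at chr11:98907901-98908200 on the plus strand, with the matches in capitals. The capitals of Mcm5 are 2 overlapping matches, on either strand.
Mcm5: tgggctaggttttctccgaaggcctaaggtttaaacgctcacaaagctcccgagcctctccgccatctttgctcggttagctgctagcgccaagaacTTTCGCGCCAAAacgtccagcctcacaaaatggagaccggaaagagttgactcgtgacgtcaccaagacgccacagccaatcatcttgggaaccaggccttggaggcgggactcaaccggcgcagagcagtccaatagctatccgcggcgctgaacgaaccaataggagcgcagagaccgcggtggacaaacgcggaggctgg
Cdc6: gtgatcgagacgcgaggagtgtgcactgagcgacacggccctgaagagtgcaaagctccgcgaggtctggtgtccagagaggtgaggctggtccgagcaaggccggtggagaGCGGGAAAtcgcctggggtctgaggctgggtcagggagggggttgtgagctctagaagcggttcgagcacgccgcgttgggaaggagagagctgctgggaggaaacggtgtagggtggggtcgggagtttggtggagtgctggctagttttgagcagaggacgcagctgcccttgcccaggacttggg

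For the G2M list, Ccnb1 at chr13:100786437-100786736, Ccnb2 at chr9:70421505-70421804 and Cdk1 at chr10:69352863-69353162 are shown. They are the first of the members described by role whose matched promoter holds a searched motif. All 3 are on the minus strand of the genome and printed along the gene, and capitals mark TTTGAA and CCAAT on either strand. Ccnb1 holds 2 CCAAT boxes and neither form of the homology region in this window. Ccnb2 and Cdk1 each hold 2 copies of TTTGAA and 3 CCAAT boxes, and Cdk1 also holds TTTNNCGC matches, left in lower case.
Ccnb1: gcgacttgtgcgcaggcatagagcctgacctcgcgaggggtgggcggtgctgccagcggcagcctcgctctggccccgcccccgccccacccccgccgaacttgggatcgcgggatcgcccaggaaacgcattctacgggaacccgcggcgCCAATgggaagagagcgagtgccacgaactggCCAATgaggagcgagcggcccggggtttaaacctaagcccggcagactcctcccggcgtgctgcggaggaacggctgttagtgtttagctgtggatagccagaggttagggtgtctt
Ccnb2: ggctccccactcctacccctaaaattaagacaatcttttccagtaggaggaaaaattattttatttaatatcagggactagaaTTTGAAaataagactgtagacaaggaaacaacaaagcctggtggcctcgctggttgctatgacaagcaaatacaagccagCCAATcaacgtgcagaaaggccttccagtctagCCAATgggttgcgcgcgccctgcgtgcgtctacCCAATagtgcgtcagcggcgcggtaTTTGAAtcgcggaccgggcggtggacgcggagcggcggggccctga
Cdk1: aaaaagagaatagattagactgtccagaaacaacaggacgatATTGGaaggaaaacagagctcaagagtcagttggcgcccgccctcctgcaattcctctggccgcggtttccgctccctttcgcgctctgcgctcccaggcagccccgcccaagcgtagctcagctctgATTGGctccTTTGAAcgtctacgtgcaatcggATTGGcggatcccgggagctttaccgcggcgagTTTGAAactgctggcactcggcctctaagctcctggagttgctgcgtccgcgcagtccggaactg

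Beside these windows, r with the G2M score was 0.66 for Ccnb1, 0.48 for Cdk1 and 0.16 for Ccnb2. Whether r goes with the motifs was not tested.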

How the data were processed

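Single-cell libraries were made with Smart-Seq2 and Nextera XT, per the labels' protocols. The authors deposited a table of raw counts per gene and cell, whole numbers that were not normalized. bcl2fastq 2.18, STAR 2.6 and the mm10 build are named in the submitters' processing notes; the counter, its annotation and what became of multi-mapping reads are not named in those notes. The libraries do not mark strand, so reads of overlapping antisense genes cannot be told apart. Cells were joined to stages by their titles, and 0 columns stayed unmapped.

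CPM was computed over reads except ERCC and Rn45s. Ratios are log2 ratios of summed reads with 0.5 added, for genes of at least 5 CPM in either group. Scores used a pseudocount of 1 CPM on cells thinned to 50000 reads (seed 1). Plate values needed 20 cells, and correlations 50. Poisson and Clopper-Pearson intervals have 95% confidence. With 1 pool per stage no model was fitted and the CPM, score and ratio steps were tested on simulated data. Python 3.11.15, numpy 2.4.6, scipy 1.17.1, pandas 2.3.3 and matplotlib 3.10.9 were used, with R 4.3.3, edgeR 4.0.16 and DESeq2 1.42.0 for alternative scaling factors. Gene positions are from GENCODE vM21.

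The members and all lists were chosen with earlier results of these data known. The list was divided by role into 24 and 34 genes, and a division after gene 26 was an alternative. Named genes were 11 S phase and 15 G2M genes fixed by role, the 5 members with the largest ratios each way for 10 against 4 somites and for Sox10 state at 10 somites, up to 4 genes of each other list, and the 10 other genes with the highest r with each score, of which 1 is not reported here. Genes named for the 6 somite plates, and Cdk4, Rbl1 and Ccnd1, were named after their values were seen.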

Additional observations from a re-analysis of the deposited data

Results flagged for a closer look

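Of 63 measures read over the 5 plates of 6 somites, 4 had a plate far from the others, and chance flags about 1 in 20 groups. Aurkb had 230.2 CPM on plate B, against 196.98 to 203.6 CPM on the other plates. Ccnb1 had 998.8 CPM on plate F, against 794.5 to 849.1 CPM on the others. Hmmr had 51.97 CPM on plate A, which held 22 kept cells of 6 somites, against 63.01 to 64.8 CPM on the others. Top2a had 371.7 CPM on the same plate, against 496.5 to 546.99 CPM on the others.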

How the results depend on the processing

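Of all alternative values for 10 results, 16 moved beyond the spread between plates, the counting interval of the value reported or, for counts, 1.5 times. For 10 against 4 somites the S phase median (−0.07) was 0.080 with Rn45s kept and 0.18 within plates, and −0.11 to −0.010 without single plates. The G2M median (−0.16) was −0.010 with Rn45s kept, and −0.29 to −0.16 without single plates, lowest without plate F and −0.25 without plate C. The G2M-high share for 10 minus 4 somites (−5.65 points) was −26.5 within plates and −12.8 to −4.67 without single plates, and that of S-high cells (3.90 points) 3.02 to 11.1, but −2.90 with each score less the mean of 1000 genes in the cell.

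For Sox10-high against Sox10-negative cells at 10 somites, the S phase median (−0.04) was 0.13 with edgeR TMM factors, 0.14 with DESeq2 size factors and 0.068 with Rn45s kept, and −0.15 to −0.030 without single plates. The G2M median (−0.11) was 0.057 with TMM factors, 0.063 with DESeq2 factors, −0.0051 with Rn45s kept, −0.18 without cells of other types and −0.099 to 0.11 without single plates. The G2M-high share (5.43 points) was 3.47 to 27.5 without single plates, and turned to −0.65 without cells of other types and −0.63 with thinning to 100000 reads. The S-high share (0.35 points) ran between −8.25 and 8.05 over all alternatives. The values of −0.15 and 0.11 for the medians, and of 27.5 and 8.05 points for the shares, came without plate C. That plate held 84.98% of the kept cells of 10 somites. The S-high value of −8.25 points came with each score less the mean of 1000 genes in the cell. The causes were not tested.

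The alternatives for the 6 somite results were chosen after seeing the data: the count of 14 S phase genes ran between 11 and 17, and the G2M-high difference of 15.1 points between 11.5 and 22.8, highest without plate E. No paired test was made, because each stage is 1 pool and no replicate numbers are shared between groups. Values within shared plates, for stages and for Sox10 states, are given in its place. Weak genes were missed in many thinned cells: Ccne2 had reads in 62.4% of them, 46.8% of G2M-high and 84.6% of S-high cells. Ccne2 entered the S score, so its difference between these classes is in part set by the method.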
